A study of Rattus norvegicus with 18 samples.

Results

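The rat genes March2, Tusc2, Fntb, F2rl1, Slc46a3, Chp1, Map4k5 and Chac2 were followed here, 8 in all. They were selected on measured values, because their read counts around 1 scaffold type, ACPC-NP, stood above those around the others at week 6 after implantation. They are 8 of 17337 genes in the count table, and all 8 were among the 11814 with enough reads to be tested. The week 6 scaffold differences and the changes between weeks are therefore given as a description, with no test. Tests were kept for week 2 and for the relation of each gene to Alas2, which encodes the erythroid aminolevulinate synthase of red cell precursors.

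The study placed 3D-printed scaffolds in a critical-sized gap of the rat radius, a defect too large to close unaided. The ACPC-NP scaffold was polycaprolactone (PCL) carrying nanoparticles of amorphous calcium phosphate and chitosan, the CaP scaffold was PCL with calcium phosphate microparticles, and the PCL scaffold was bare. All animals had the label WT; the sources used here give no age, sex or strain. Each scaffold was sampled at weeks 6 and 2 with 3 libraries of polyadenylated RNA, 18 libraries in 6 groups. Cells from bone and marrow within 1 mm of the implant were pooled, after red blood cell lysis of the marrow part and digestion with collagenases. Whether the 3 libraries of a group stem from different animals is not in the labels, so p-values measure the spread between libraries, which may be technical in part.

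The 8 genes belong to no common pathway. March2 encodes a RING-CH ubiquitin ligase of endosomal membranes, and Fntb the beta subunit of farnesyltransferase, which attaches a lipid anchor to CAAX proteins. F2rl1 encodes PAR2, a receptor switched on when trypsin-like proteases cut its outer end. Map4k5 is a Ste20-type kinase that feeds the JNK cascade, and Chp1 is a calcium-binding protein related to calcineurin. Slc46a3 is a lysosomal membrane transporter, Chac2 cleaves glutathione in the cytosol, and Tusc2 is a mitochondrial protein linked to calcium handling in mice. In marrow, red cell precursors are abundant; they switch on Alas2 to make haem and lose their nucleus and mitochondria as they mature.

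Total counts ran from 18880604 to 27186587 per library. The third ACPC-NP library of week 2 stood apart: it lay at 91.4 on the leading principal component of log2 levels, against -23.9 to 25.5 for the other 17, and its composition factor (TMM) was 0.706, against 0.950 to 1.11. The edgeR calls of week 2 are given with and without it. The erythroid markers of the tissue were strongly present, Alas2 at 1318 to 3852 CPM (counts scaled to a common library size), while Gata1, another erythroid marker, was listed at 0 in all 18 libraries. CPM is not scaled by gene length, so levels are compared between libraries and not between genes.

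Promoter sequence was available from RefSeq (GRCr8) for 6 of the 8 genes (March2 is listed there as Marchf2), the exceptions being Tusc2 and F2rl1. The windows below run from 250 bases before the annotated start to 50 after it, 300 bases in all, on the strand of the gene. Those of March2, Map4k5 and Chac2 are shown because these genes varied together with Alas2, and that of Alas2 for comparison. They lie at chr7:15209809-15210108 (minus strand), chr6:94112894-94113193 (minus), chr14:108929047-108929346 (minus) and chrX:22895200-22895499 (plus). Capitals mark matches, on either strand, to AGATAA (the GATA factor motif), CCNCNCCC (KLF1 and related factors), TGACNNNGC (the antioxidant response motif) and CCAAT (NF-Y).
March2: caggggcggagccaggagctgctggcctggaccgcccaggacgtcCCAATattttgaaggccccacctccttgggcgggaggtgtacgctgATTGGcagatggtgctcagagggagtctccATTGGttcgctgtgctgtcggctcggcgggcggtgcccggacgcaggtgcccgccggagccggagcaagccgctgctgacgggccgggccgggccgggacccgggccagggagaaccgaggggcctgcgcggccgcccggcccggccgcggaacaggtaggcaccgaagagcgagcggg
Map4k5: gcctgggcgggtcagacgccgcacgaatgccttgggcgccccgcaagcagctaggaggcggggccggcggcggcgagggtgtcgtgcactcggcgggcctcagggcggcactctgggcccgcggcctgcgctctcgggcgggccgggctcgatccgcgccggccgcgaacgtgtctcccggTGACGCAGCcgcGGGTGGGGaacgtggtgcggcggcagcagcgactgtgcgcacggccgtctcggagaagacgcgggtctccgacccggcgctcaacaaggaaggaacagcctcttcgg
Chac2: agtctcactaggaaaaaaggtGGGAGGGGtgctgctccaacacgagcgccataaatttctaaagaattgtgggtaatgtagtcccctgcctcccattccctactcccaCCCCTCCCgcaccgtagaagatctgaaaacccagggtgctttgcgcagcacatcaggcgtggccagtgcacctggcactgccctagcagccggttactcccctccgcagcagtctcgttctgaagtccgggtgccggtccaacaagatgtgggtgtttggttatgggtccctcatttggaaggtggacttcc
Alas2: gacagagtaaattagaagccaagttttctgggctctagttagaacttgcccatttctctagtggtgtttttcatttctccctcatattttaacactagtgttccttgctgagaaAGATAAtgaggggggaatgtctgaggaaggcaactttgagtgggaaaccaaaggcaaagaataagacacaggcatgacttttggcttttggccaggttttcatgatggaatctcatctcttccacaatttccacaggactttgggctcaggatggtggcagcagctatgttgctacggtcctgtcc

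The window of Alas2 held AGATAA at position -136, counted from the start, and none of the 6 windows of the selected genes held it. March2 carried CCAAT at -205, -159 and -129. Map4k5 had TGACNNNGC at -69 and CCNCNCCC at -57, and Chac2 had CCNCNCCC at -229 and -142. Over the 6 windows, 5 held CCNCNCCC, 4 held CCAAT and 2 held TGACNNNGC. Among 33469 rat promoters of the same length the shares were 46.3% for CCNCNCCC, 37.5% for CCAAT, 12.1% for TGACNNNGC and 11.6% for AGATAA. Matches of 1 motif may overlap, as at -149 and -147 in Chp1, whose window held CCNCNCCC 5 times. These are letter matches in a fixed window and describe no binding.

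At week 6 the ACPC-NP libraries held the highest levels of 7 of the 8 genes, with no overlap with the 6 CaP and PCL libraries. Of all genes tested, 7.17% were separated in this way and direction, and since week 6 values selected the genes nothing is read from the 7. Slc46a3 was the exception, by a narrow margin. The median difference from the mean of CaP and PCL was 0.60 (log2) over the 8 genes and 0.00 over all genes. In bulk RNA, more cells of a type and more RNA per cell cannot be told apart.

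Both protein-modifying enzymes were high around ACPC-NP at week 6. March2 stood at 324, 335 and 297 CPM around ACPC-NP, against 174, 187 and 219 CPM around CaP and 204, 148 and 178 CPM around PCL. The lowest ACPC-NP library was thus above the highest of the others, and the log2 difference from the mean of CaP and PCL was 0.79 ± 0.135 (SE, n = 3 per group). Fntb stood at 26.5, 29.0 and 24.8 CPM around ACPC-NP, 17.1, 21.7 and 19.8 CPM around CaP and 14.7, 13.6 and 13.4 CPM around PCL. Here the 3 scaffolds formed 3 separate ranges, PCL the lowest, and the log2 difference was 0.95 against PCL and 0.46 against CaP.

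The 3 signalling genes differed in how far apart the scaffolds lay. F2rl1, the protease receptor, stood at 5.85, 4.78 and 5.83 CPM around ACPC-NP, 2.40, 3.62 and 2.89 CPM around CaP and 2.74, 1.98 and 2.46 CPM around PCL. This log2 difference, 1.04 ± 0.197 from the mean of CaP and PCL, exceeded that of the other 7 genes but rested on the fewest reads, 50 to 146 per library over the 18. Map4k5 stood at 66.1, 78.9 and 54.0 CPM around ACPC-NP, 42.0, 40.9 and 48.4 CPM around CaP and 43.2, 43.3 and 47.0 CPM around PCL. Its ACPC-NP libraries were spread widely, and the log2 difference was 0.59 ± 0.119. Chp1 stood at 80.4, 78.6 and 69.5 CPM around ACPC-NP, 53.1, 46.2 and 51.4 CPM around CaP and 61.1, 45.6 and 56.5 CPM around PCL, a log2 difference of 0.54 ± 0.117.

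The transport and metabolic genes came with differing margins. Tusc2 stood at 43.2, 48.6 and 44.9 CPM around ACPC-NP, 28.1, 30.0 and 33.7 CPM around CaP and 28.8, 27.6 and 29.8 CPM around PCL, a log2 difference of 0.62 ± 0.109. Slc46a3, the lysosomal transporter, stood at 9.74, 13.1 and 11.03 CPM around ACPC-NP, 9.18, 8.36 and 9.77 CPM around CaP and 6.04, 7.40 and 6.15 CPM around PCL. Its ACPC-NP range was clear of PCL and touched that of CaP, with log2 differences of 0.79 against PCL and 0.31 against CaP. Chac2 stood at 18.1, 27.2 and 20.1 CPM around ACPC-NP, 12.5, 13.0 and 15.6 CPM around CaP and 17.8, 13.7 and 17.1 CPM around PCL. Here the lowest ACPC-NP library, 18.1 CPM, was barely above the highest PCL library, 17.8 CPM, and the log2 difference was 0.55 ± 0.175.

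The genes were selected on week 6 values and not by an edgeR call, and their ranks differed between comparisons. Against PCL, March2, Fntb, Tusc2, F2rl1 and Slc46a3 held ranks 1 to 5 by p among genes higher around ACPC-NP, and against CaP, March2, Tusc2, Chp1 and Map4k5 held ranks 2, 5, 6 and 7, with Chac2 at rank 40. Map4k5, Chp1 and Chac2 held ranks 35, 113 and 1164 against PCL. F2rl1, Fntb and Slc46a3 held ranks 13, 225 and 672 against CaP. The ranks come from the week 6 values that selected the genes, so they describe the choice and nothing is read from them. No gene of the 11814 passed edgeR's quasi-likelihood test at an adjusted p under 0.05 between ACPC-NP and the CaP and PCL mean at week 6, a called share of 0%. At an unadjusted p under 0.05 there were 2421 genes, and DESeq2 called 623 and voom with quality weights 3462. Without the first PCL library of week 6 edgeR called 1335, and without the third CaP library 1. The word raised thus describes the order of these levels and no edgeR call.

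**Figure D1:**
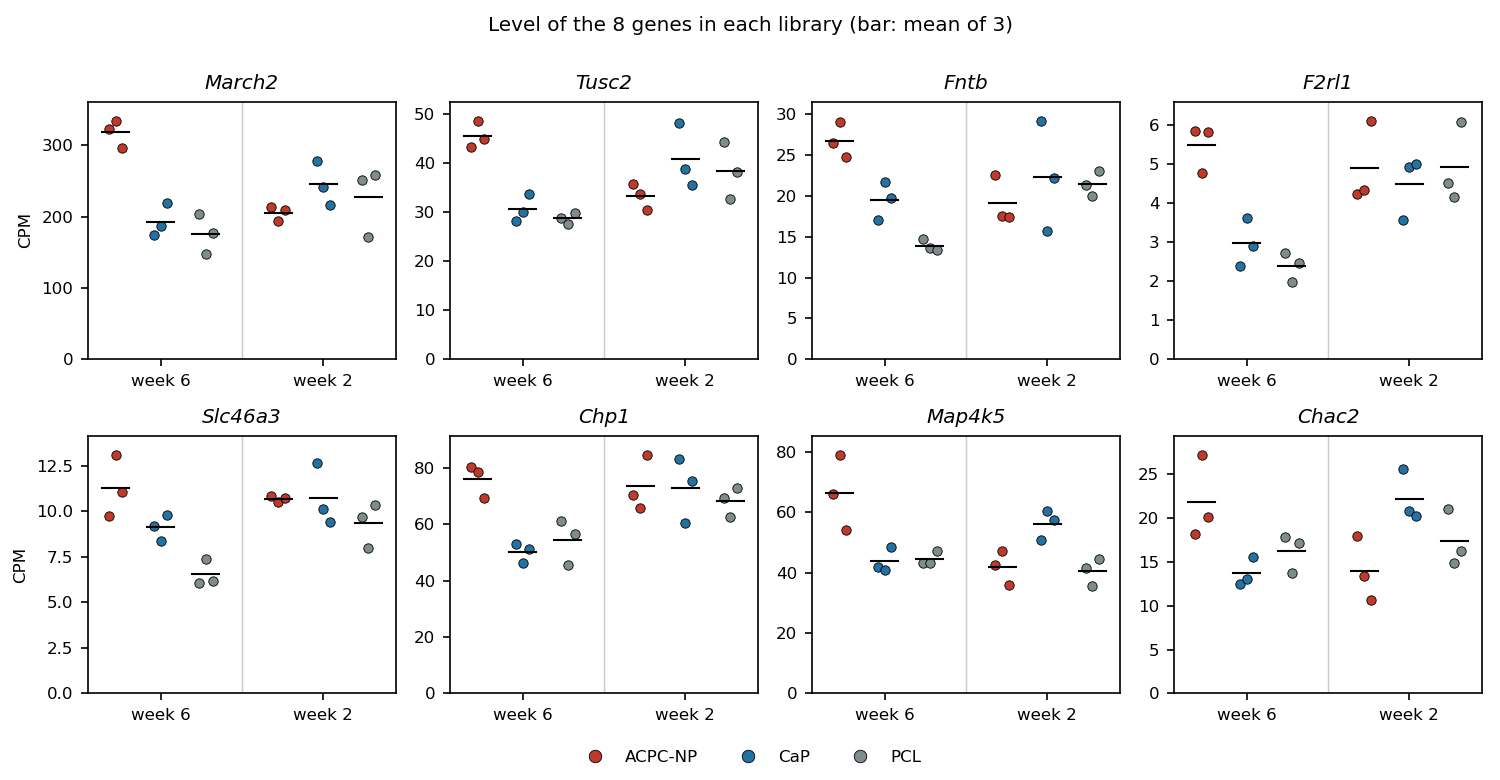
Level of each gene in CPM (vertical axes, from 0) in the 18 libraries, week 6 left of week 2 and ACPC-NP, CaP and PCL from left to right within a week. Points are libraries and bars are means of 3; at week 6 the ACPC-NP points lie above the others except for Slc46a3, and at week 2 no gene has its ACPC-NP points all above or all below the others.

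At week 2, in libraries that did not select the genes, the ACPC-NP levels of the 8 genes were not set apart. March2 stood at 214, 194 and 210 CPM around ACPC-NP, 279, 241 and 216 CPM around CaP and 252, 171 and 259 CPM around PCL. Tusc2 stood at 35.7, 33.6 and 30.3 CPM around ACPC-NP, 48.2, 38.8 and 35.5 CPM around CaP and 44.2, 32.7 and 38.2 CPM around PCL. Both genes were lowest on average around ACPC-NP, where they were highest at week 6, but with overlapping ranges. On average CaP lay above PCL at both weeks. F2rl1 stood at 4.25, 4.34 and 6.12 CPM around ACPC-NP, 3.58, 4.94 and 5.01 CPM around CaP and 4.52, 4.16 and 6.08 CPM around PCL, with no order among the scaffolds. The highest F2rl1 value around ACPC-NP came from the library that stood apart.

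The ranges of Fntb and Chp1 overlapped among all 3 scaffolds, and that of Slc46a3 around ACPC-NP overlapped CaP and lay just above PCL. Fntb ranged over 17.4 to 22.6 CPM around ACPC-NP, 15.7 to 29.2 CPM around CaP and 19.96 to 23.1 CPM around PCL. Slc46a3 ranged over 10.5 to 10.8 CPM around ACPC-NP, 9.43 to 12.7 CPM around CaP and 7.999 to 10.3 CPM around PCL. Chp1 ranged over 65.9 to 84.7 CPM around ACPC-NP, 60.7 to 83.0 CPM around CaP and 62.6 to 72.9 CPM around PCL.

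Map4k5 and Chac2 were highest around CaP at week 2. Map4k5 stood at 42.6, 47.0 and 35.8 CPM around ACPC-NP, 50.9, 60.3 and 57.4 CPM around CaP and 41.7, 35.5 and 44.4 CPM around PCL. Chac2 stood at 17.9, 13.3 and 10.6 CPM around ACPC-NP, 25.6, 20.8 and 20.2 CPM around CaP and 21.0, 14.8 and 16.2 CPM around PCL. The ACPC-NP and CaP ranges were separate for both genes, while the ACPC-NP and PCL ranges overlapped.

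None of the 8 genes passed the week 2 test in any of 4 comparisons. Between ACPC-NP and the mean of CaP and PCL, edgeR's adjusted p ran from 0.147 for Chac2 (log2 difference -0.49 ± 0.182) and 0.235 for Tusc2 (-0.25 ± 0.113) to 0.898 for F2rl1 (0.055 ± 0.201). March2 differed by -0.20 ± 0.139 (adjusted p = 0.450), Map4k5 by -0.19 ± 0.123 and Fntb by -0.19 ± 0.157. Slc46a3 differed by 0.094 ± 0.135 and Chp1 by 0.060 ± 0.119. Of all genes, 4.99% passed in this comparison, 577 higher and 13 lower around ACPC-NP. Without the ACPC-NP library that stood apart 10 genes passed in place of 590, and without the first ACPC-NP library 1363. Leaving out each other week 2 library gave 172 to 930.

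Against each scaffold alone, and between CaP and PCL, edgeR called 0% of genes at week 2. At an unadjusted p under 0.05 there were 1858 genes for ACPC-NP against CaP, 1854 against PCL and 183 for CaP against PCL. DESeq2 called 595, 632 and 0 genes in these comparisons and voom 365, 281 and 0. Without the first ACPC-NP library edgeR called 893 against CaP and 877 against PCL, and without the second 141 and 383. Map4k5 differed by -0.43 ± 0.141 between ACPC-NP and CaP (edgeR adjusted p = 0.158) and by 0.47 ± 0.141 between CaP and PCL, at an adjusted p of 1.00.

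Chac2 was closest to a call at week 2. It differed by -0.67 ± 0.207 between ACPC-NP and CaP, with an edgeR adjusted p of 0.136. With voom the adjusted p was 0.0475 against CaP and 0.0497 against the mean of CaP and PCL, and without the first ACPC-NP library edgeR's was 0.0228 and 0.0288. At week 2 no member had all 3 ACPC-NP libraries above the 6 others, where 5.8% of genes did, and none had all 3 below, where 2.54% did.

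**Figure D2:**
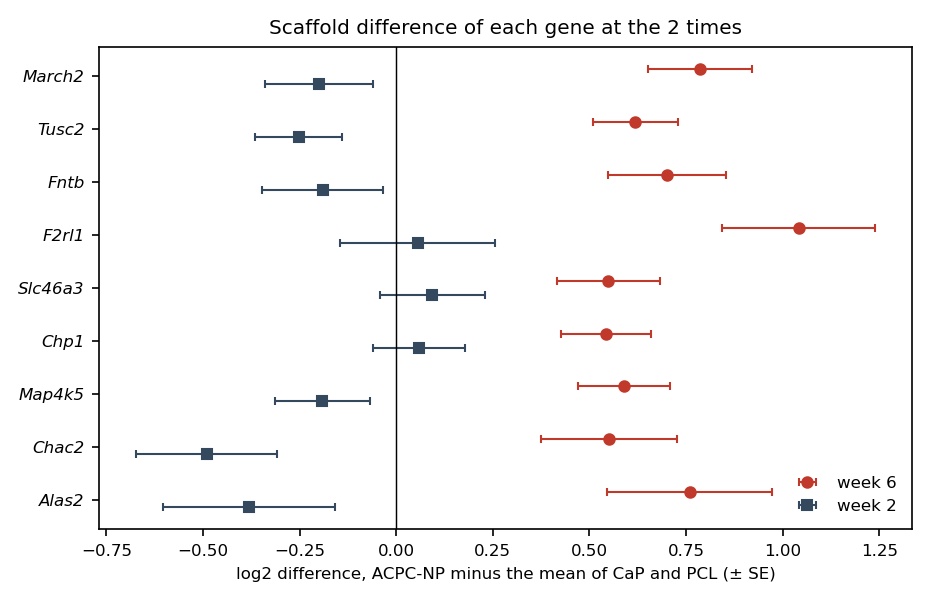
Log2 difference between ACPC-NP and the mean of CaP and PCL for the 8 genes and Alas2, with SE bars, at week 6 (circles) and week 2 (squares). Every week 6 value lies above 0, from 0.54 for Chp1 to 1.04 for F2rl1, while week 2 values run from -0.49 for Chac2 to 0.094 for Slc46a3.

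The route to the week 6 pattern differed between genes. Around ACPC-NP, March2, Map4k5, Chac2, Fntb and Tusc2 had week 6 minus week 2 log2 differences of 0.63, 0.67, 0.64, 0.48 and 0.46. F2rl1, Slc46a3 and Chp1 had 0.17, 0.080 and 0.049, so their levels around ACPC-NP were close at both times. Around CaP the difference was below 0 for all 8 genes, from -0.70 for Chac2 to -0.20 for Fntb. Around PCL it was below 0 for 7, reaching -1.04 for F2rl1 and -0.63 for Fntb, and 0.13 for Map4k5. For F2rl1, Slc46a3 and Chp1 the CaP and PCL levels were thus lower at week 6 than at week 2 while the ACPC-NP levels were close, a description with no test.

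By mean level, ACPC-NP at week 6 was the highest of the 6 groups for 7 genes, and CaP at week 2 for Chac2 (22.2 ± 2.93 CPM, SD, n = 3, against 21.8 ± 4.75 CPM around ACPC-NP at week 6). For March2 the top group, at 318 ± 19.6 CPM, was clear of the next, CaP at week 2, at 245 ± 31.2 CPM. For the other 7 genes the ranges of the top groups overlapped. Fntb and Slc46a3 were also unequal between CaP and PCL at week 6, with log2 differences of 0.49 ± 0.181 and 0.48 ± 0.158, and F2rl1 of 0.31 ± 0.238. The remaining 5 genes lay between -0.24 and 0.13.

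Alas2 also had its highest group mean around ACPC-NP at week 6. Its week 6 minus week 2 log2 difference was 0.88 around ACPC-NP, -0.40 around CaP and -0.12 around PCL. It stood at 3114, 3852 and 2741 CPM around ACPC-NP, 1445, 1996 and 2210 CPM around CaP and 2257, 1436 and 2125 CPM around PCL at week 6. At week 2 it stood at 1850, 1922 and 1486 CPM around ACPC-NP, 2353, 2850 and 2243 CPM around CaP and 2707, 1318 and 2276 CPM around PCL. The ACPC-NP libraries were thus above all others at week 6 only. The log2 difference from the mean of CaP and PCL was 0.76 ± 0.213 at week 6 (edgeR adjusted p = 0.112) and -0.38 ± 0.222 at week 2 (adjusted p = 0.369). With DESeq2 the adjusted p of Alas2 was 0.0214 at week 6 and 0.351 at week 2, and with voom 0.00659 and 0.198. At week 6 these tools called 623 and 3462 genes in all.

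Over the 18 libraries each gene was set against Alas2 in log2 CPM. The Alas2 ranges of the 2 weeks overlapped, and r was taken over all libraries together. The genes were selected on week 6 values, which enter this correlation, so it is not independent of their choice. The same was therefore tested over the 9 week 2 libraries, and over 18 libraries after each group's mean was subtracted, where differences between groups do not enter. Permutation over the 18 and over the 9 libraries crossed the groups, so differences between groups enter those r and p-values. Only the centred test permuted within groups. In all, 24 correlations were tested, with p-values adjusted over the 8 genes of each set.

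March2, Map4k5, Chac2 and Tusc2 followed Alas2 in all 3 sets. Over 18 libraries Pearson's r was 0.860 for March2 (permutation p = 1e-05, the smallest that 100000 permutations can give, adjusted p = 8e-05; Spearman's rho 0.897, adjusted p = 8e-05). It was 0.837 for Map4k5 (p = 2e-05, adjusted p = 8e-05 by permutation; rho 0.746, p = 0.00052, adjusted p = 0.00104). Chac2 had r = 0.793 (permutation p = 5e-05, adjusted p = 0.000133; rho 0.806, p = 4e-05, adjusted p = 0.00016), and Tusc2 r = 0.777 (p = 0.00016, adjusted p = 0.00032; rho 0.792, p = 0.00013, adjusted p = 0.000347). These r values were matched or exceeded by 0.625% to 1.67% of the 10086 genes with a mean log2 CPM of at least 1, whose median r with Alas2 was -0.048.

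Fntb passed over the 18 libraries alone, with r = 0.520 (permutation p = 0.0278, adjusted p = 0.0444; rho 0.523, adjusted p = 0.0449), and lost the call when any of 10 single libraries was left out (r from 0.409 to 0.619 over all 18 such settings). F2rl1 (r = 0.424, adjusted p = 0.107; rho 0.470, adjusted p = 0.0693), Chp1 (r = 0.406, adjusted p = 0.109; rho 0.416, adjusted p = 0.0890) and Slc46a3 (r = 0.385, adjusted p = 0.115; rho 0.422, adjusted p = 0.0890) did not pass by permutation. Without the ACPC-NP library of week 2 that stood apart, F2rl1 had r = 0.579 and Chp1 r = 0.580, both at an adjusted permutation p of 0.0200. For these 4 genes 10.6% to 17.9% of the 10086 genes had as high an r with Alas2.

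**Figure D3:**
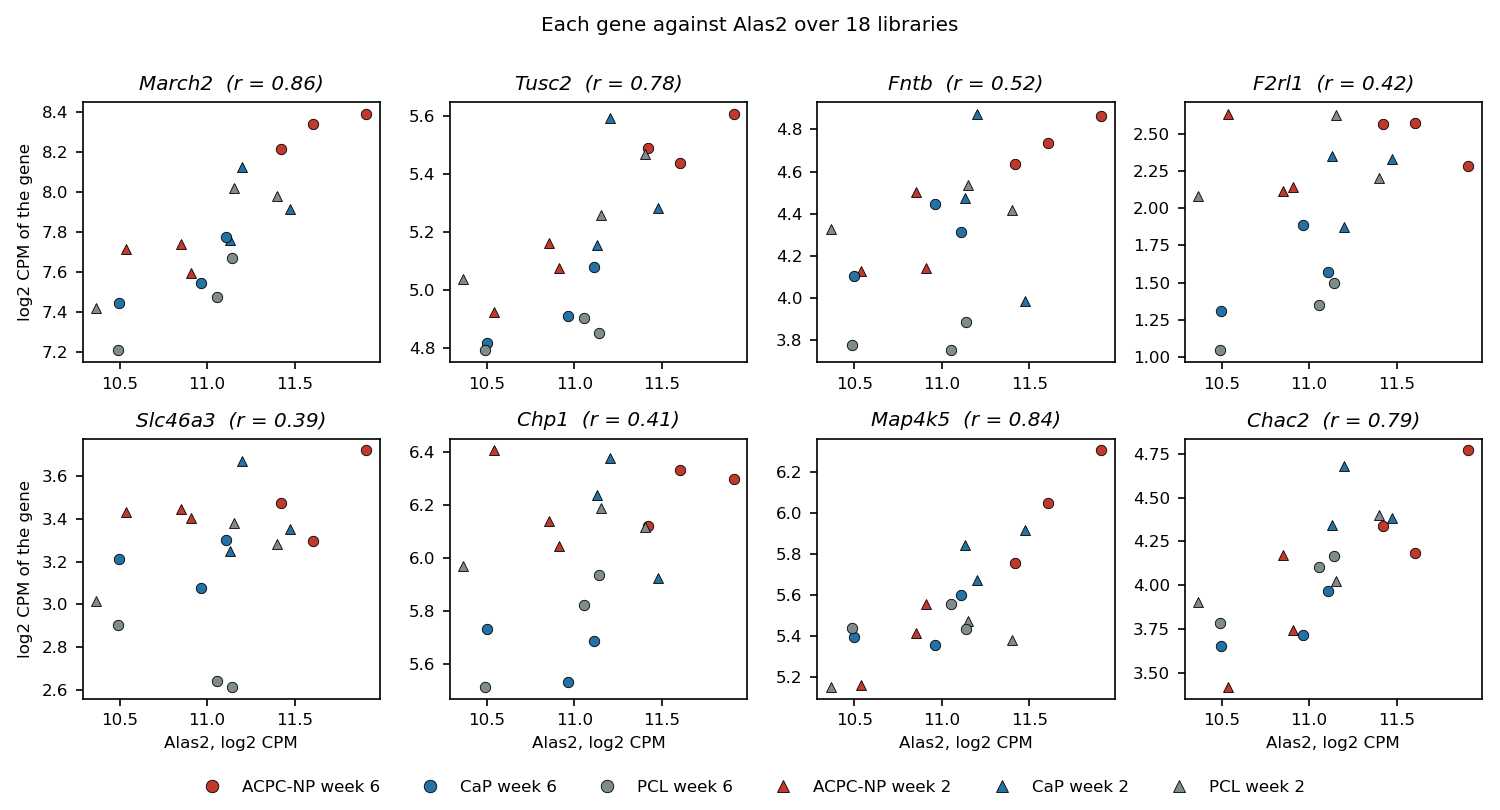
Log2 CPM of each gene (vertical) against log2 CPM of Alas2 (horizontal) in 18 libraries, circles for week 6 and triangles for week 2, coloured by scaffold. March2 (r = 0.860), Map4k5 (0.837), Chac2 (0.793) and Tusc2 (0.777) rise with Alas2 within both weeks, while the week 2 triangles of F2rl1 and Chp1 show no slope.

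In the week 2 libraries, with 9 values, the same 4 genes passed and the other 4 did not. Pearson's r was 0.795 for March2 (exact permutation p = 0.0107), 0.759 for Map4k5 (p = 0.0181), 0.756 for Tusc2 (p = 0.0185) and 0.738 for Chac2 (p = 0.0232), each at an adjusted exact permutation p of 0.0463. Spearman's rho was 0.800, 0.667, 0.867 and 0.783 in that order, and Map4k5 did not pass on it (adjusted exact permutation p = 0.118). The values for the others were 0.350 for Slc46a3, 0.146 for Fntb, -0.041 for F2rl1 and -0.100 for Chp1, with adjusted exact permutation p from 0.575 to 0.916. As high an r with Alas2 at week 2 was shown by 2.25% to 4.30% of the 10086 genes for the 4 that passed, and by 29.6% to 57.8% for the others. With 8 libraries, leaving out each in turn, 0 to 2 genes passed. The r values of the 4 genes then stayed between 0.647 and 0.919.

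After centring on each group the split was the same. March2 had r = 0.793 (exact permutation p = 0.00984, adjusted p = 0.0262), Map4k5 0.671 (p = 0.00467, adjusted p = 0.0262), Tusc2 0.666 (p = 0.0134, adjusted p = 0.0267) and Chac2 0.665 (p = 0.00815, adjusted p = 0.0262). Spearman's rho was 0.701, 0.725, 0.655 and 0.719. F2rl1, Slc46a3, Fntb and Chp1 had r of 0.268, 0.207, 0.170 and 0.166, all at an adjusted exact permutation p of 0.538. The shares of the 10086 genes with as high a centred r were 0.714% to 2.65% for the 4 and 23.0% to 32.1% for the others.

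The centred result depended on single libraries. No gene passed without the third ACPC-NP library of week 2, the second ACPC-NP library of week 6 or the second PCL library of week 2. The number passing was 1 without the first CaP or the second PCL library of week 6, and 2 without the first or the third PCL library of week 2. The r of the 4 genes lay between 0.516 and 0.872 over all 18 such settings. Without the second CaP library of week 2 Fntb passed too (r = 0.493, adjusted exact permutation p = 0.0464).

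Over the 16 libraries left without the 2 farthest from its median, the second of ACPC-NP at week 6 and the second of PCL at week 2, r was, with no test, 0.810 for March2, 0.767 for Tusc2, 0.761 for Chac2 and 0.724 for Map4k5. For Fntb it was 0.470, for F2rl1 0.489, for Chp1 0.360 and for Slc46a3 0.176. With all 3 ACPC-NP libraries of week 6 left out, a setting added after the data had been seen, r over 15 libraries was 0.751 for March2, 0.742 for Chac2, 0.688 for Map4k5 and 0.642 for Tusc2, with adjusted permutation p from 0.00668 to 0.0207. Fntb had r = 0.235, and F2rl1, Chp1 and Slc46a3 stood at 0.265, 0.213 and 0.167. The 15 libraries still hold CaP and PCL at week 6, whose values also selected the genes. This setting is thus not independent of the choice of genes.

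Within week 6, which selected the genes, r was 0.935 for March2, 0.903 for Chac2, 0.898 for Tusc2 and 0.884 for Map4k5. It was 0.871 for Chp1, 0.835 for F2rl1, 0.768 for Fntb and 0.556 for Slc46a3, given as a description over 9 libraries.

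**Figure D4:**
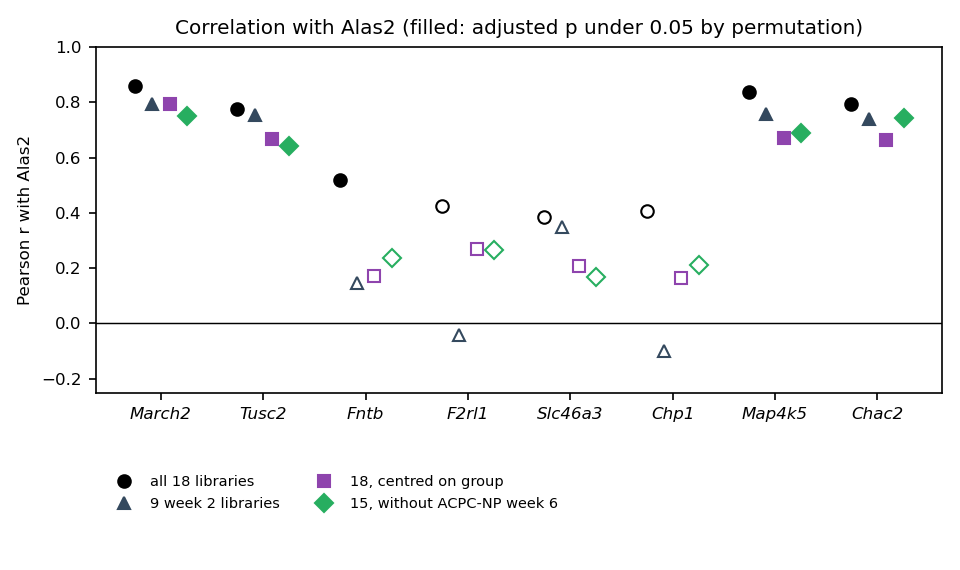
Pearson r of each gene with Alas2 over all 18 libraries, the 9 of week 2, 18 centred on their group, and 15 without ACPC-NP at week 6. Filled symbols passed an adjusted permutation p under 0.05; March2, Tusc2, Map4k5 and Chac2 lie between 0.642 and 0.860 in all 4 sets, and the other genes reach 0.520 at most.

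Levels were also scaled to Alas2. At week 6 the log2 ratio of gene to Alas2 differed between ACPC-NP and the other scaffolds by 0.023 for March2, -0.072 for Fntb and -0.15 for Tusc2. It was -0.20 for Map4k5, -0.22 for Chp1, -0.23 for Slc46a3, -0.24 for Chac2 and 0.26 for F2rl1. The week 6 ranges of the ratio overlapped between ACPC-NP and the other libraries for each gene. Week 6 values selected the genes, and Alas2 was itself higher around ACPC-NP then. These ratios are thus a description with no test. At week 2 the ratio differed by 0.46 for Slc46a3, 0.41 for Chp1 and 0.41 for F2rl1, and by -0.16 for Chac2 to 0.18 for Fntb for the other 5.

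Among themselves the 8 genes were loosely tied. The 28 pairwise r values over 18 libraries ran from 0.226 to 0.910, with a median of 0.657, and after centring on the groups from -0.386 to 0.822, with a median of 0.340. The genes nearest to March2 by r were Gpx1 (0.943), Isca1 (0.929) and Traf7 (0.928). Nearest to Tusc2 were Hagh (0.929), Glrx5 (0.920) and Sertad3 (0.914), and to Chac2 Abcb6 (0.912), Arhgef12 (0.906) and Sptb (0.905). Map4k5 lay nearest to Vopp1 (0.876), Usp15 (0.875) and Dstyk (0.874), and Alas2 stood at rank 12 among its neighbours.

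The other 4 genes had other neighbours. Fntb lay nearest to Cuedc2 (0.871), Apeh (0.858) and Dis3l (0.858). F2rl1 lay nearest to Arl2bp (0.838), Copz1 (0.826) and Mcee (0.822). Slc46a3 lay nearest to Psmg1 (0.881), Snupn (0.851) and Commd3 (0.847), and Chp1 to Sec61b (0.872), Tinagl1 (0.868) and RGD1306063 (0.868). Alas2 ranked 53 for March2, 116 for Chac2 and 195 for Tusc2, but 1156 to 2070 for these 4. Neighbours were searched among 10086 genes over the 18 libraries, which share scaffold, week and cell composition.

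Markers of red cell precursors had higher mean levels around ACPC-NP at week 6, with no edgeR call. Of 42 listed erythroid genes 34 were tested, and at week 6 the difference between ACPC-NP and the mean of CaP and PCL was above 0 for 34 of 34, with a median of 0.65 against 0.00 for all genes, though edgeR called none. An unadjusted p under 0.05 was reached by 31 of the 34 and by 20.5% of all genes, and 50.3% of all genes lay above 0. Their summed level was 75094 to 96244 CPM around ACPC-NP, 40242 to 56376 CPM around CaP and 35503 to 55781 CPM around PCL. At week 2 the difference was above 0 for 0 of 34, with a median of -0.38, and for 46.9% of all genes. Whether the amount of erythroid RNA accounts for the levels of the 8 genes was not tested beyond the correlations given.

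The other marker lists lay on both sides of 0 at week 6, with no edgeR call. The difference was above 0 for 12 of 12 neutrophil genes (median 0.53), 12 of 12 of monocytes and macrophages (0.30), 6 of 6 of megakaryocytes (0.58), 10 of 10 of skeletal muscle (0.95), and 13 of 15 of proliferation (0.23). It was above 0 for 0 of 11 B cell genes (-0.50), 0 of 15 immediate early genes (-0.52), 0 of 9 of chondrocytes (-0.83) and 2 of 14 of osteoblasts (-0.80). For osteoclasts it was 8 of 12 (0.27), for eosinophils and mast cells 8 of 11 (0.42), for stroma 7 of 9 (0.35), for endothelium 7 of 9 (0.14) and for T and NK cells 8 of 12 (0.06). No list gene passed edgeR at week 6, where 0% of all genes did. For some lists the libraries of a group lay far apart. Summed levels of skeletal muscle were 71 to 649 CPM around ACPC-NP, 63 to 208 CPM around CaP and 116 to 213 CPM around PCL. In the same order they were 86 to 1230, 171 to 5706 and 224 to 2829 CPM for chondrocytes. Those of stroma were 152 to 655, 184 to 679 and 176 to 358 CPM. The part of these cells in the levels of the 8 genes was not tested.

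**Figure D5:**
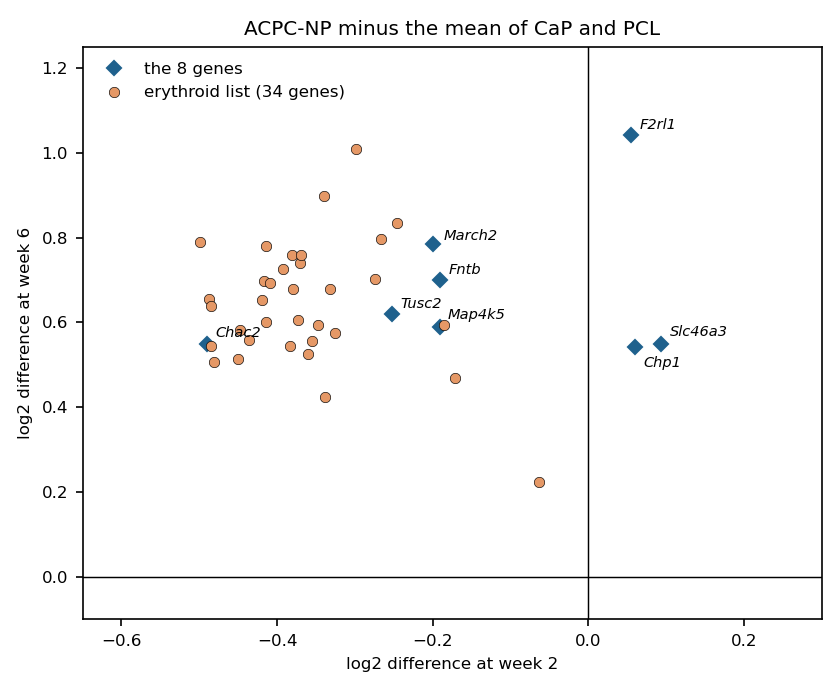
Log2 difference between ACPC-NP and the CaP and PCL mean at week 6 (vertical) and week 2 (horizontal) for the 8 genes (diamonds) and 34 erythroid genes (circles). All 34 erythroid genes lie above 0 at week 6 and below 0 at week 2, where March2, Tusc2, Fntb, Map4k5 and Chac2 also lie below 0 and F2rl1, Slc46a3 and Chp1 above it.

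Relatives and partners of the 8 genes lay on both sides of 0 at week 6. No gene of their lists passed edgeR at week 6. Of the MARCH ligases, March8 had a week 6 difference of 0.57 ± 0.134, and March1, March3 and March5 of 0.25, 0.21 and 0.15. March6, March7 and March9 lay at -0.10, -0.34 and -0.66. Over the 7 tested relatives of March2 the median was 0.15, and none passed at week 2 (median -0.09). Fnta, the alpha subunit that pairs with Fntb, differed by -0.077 ± 0.074 at week 6. Of 25 prenylation genes 8 lay above 0 at week 6 (median -0.09).

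Among protease receptors and their proteases, 14 of 21 lay above 0 at week 6 (median 0.27), with the thrombin receptor F2r at 0.11 ± 0.139. For Map4k5, Map4k1, Map4k3, Map4k4 and Map4k2 lay at -0.52, -0.15, -0.085 and 0.045 at week 6, and 4 of 25 genes of the JNK cascade lay above 0 (median -0.18). For Chp1, 4 of 13 listed relatives and partners lay above 0 at week 6 (median -0.10) and none passed at week 2, where Rcan1 (0.48) and Gpam (-0.42) were among those with the 3 smallest p.

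For Slc46a3, the folate transporter gene Slc46a1 lay at -0.46 ± 0.212 at week 6, and 5 of 13 lysosomal transporters lay above 0 (median -0.09). For Chac2, its relative Chac1 lay at -0.86 ± 0.414 at week 6 and Ggct at 0.27 ± 0.145, and 16 of 23 glutathione genes lay above 0 (median 0.18). For Tusc2, 13 of 18 gene neighbours and mitochondrial calcium genes lay above 0 at week 6 (median 0.18) and none passed at week 2, where Vdac1 (0.65), Hyal2 (0.43) and Hyal1 (1.54) had the smallest p.

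At week 2, calls among the relatives and partners rested on the ACPC-NP library that stood apart, F3 excepted. With all libraries 12 genes of these lists passed, all higher around ACPC-NP, in a comparison where 4.99% of all genes passed, 577 higher and 13 lower. They were 3 of 21 protease receptors and proteases (median 0.06), 3 of 13 lysosomal transporters (0.57), 3 of 23 glutathione genes (0.12), 2 of 25 prenylation genes (0.02) and 1 of 25 genes of the JNK cascade (0.03), against a median of -0.02 for all genes. The JNK cascade's count was below the share of all genes. Without that library, a setting chosen after the data had been seen, 1 of the 12 passed. This was the tissue factor gene F3, with a log2 difference of 5.30 ± 0.702 (edgeR adjusted p = 0.00559) with all libraries and 2.88 ± 0.376 (adjusted p = 0.0190) without it.

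The other calls were lost. The receptor gene F2rl2 had a log2 difference of 2.69 ± 0.625 with the library and 0.67 ± 0.452 without it (edgeR adjusted p = 0.894). The cathepsin gene Ctss had 1.13 with it and 0.66 without it, the lamin gene Lmna 1.18 and 0.68, and the kinase gene Map4k4 1.96 and 0.50. Of the transporter genes, Slc15a3 had 1.46 with it and 0.39 without it, Mfsd1 0.98 and 0.37, and the cystine transporter gene Ctns 0.62 and 0.26. Of the glutathione genes, Anpep had 2.29 with it and 1.02 without it, Txnrd1 1.72 and 0.53, and Ggt5 1.55 and 0.27. All of these lay above 0 without the library, at edgeR adjusted p up to 0.933.

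Marker lists of other cells stood beside these week 2 values. With all libraries edgeR called, all higher around ACPC-NP, 7 of 12 osteoclast genes (median 0.90), 6 of 12 of monocytes and macrophages (0.71), 4 of 15 immediate early genes (1.48), 3 of 12 of T and NK cells (0.42), 2 of 6 of megakaryocytes (-0.23), 1 of 14 of osteoblasts (-0.13) and 1 of 12 of neutrophils (-0.32). Without the library that stood apart none of these passed, in a fit with fewer libraries where 10 of all genes passed. Their log2 differences all stayed above 0, and some changed little. Spp1 of the osteoblast list had 2.27 with it and 2.38 without it. The osteoclast genes Acp5 and Nfatc1 had 1.04 and 0.56 with it and 0.83 and 0.46 without it. Others fell further, the osteoclast gene Clcn7 from 0.77 to 0.22 and the immediate early gene Hspa1a from 3.94 to 0.93. The summed level of the immediate early genes was 2316, 3440 and 14152 CPM in the 3 ACPC-NP libraries of week 2, the highest in the library that stood apart, against 1618 to 3879 CPM around CaP and 1838 to 3411 CPM around PCL. No erythroid, chondrocyte, stromal, endothelial, muscle, eosinophil and mast cell, B cell or proliferation gene passed. The part of these cells in the week 2 values was not tested.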

How the data were processed

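RNA from cells around ACPC-NP, CaP and PCL scaffolds was measured by mRNA sequencing in 18 libraries, 3 for each scaffold and week. The submitters' processing notes name bcl2fastq 2.20.0, STAR 2.7.9a, Subread 2.0.1 with featureCounts, and build Rnor_6.0. For the annotation and strand setting, not given in the sources used here, nothing can be checked, and reads of overlapping or antisense genes cannot be told apart. The authors deposited counts of reads per gene symbol, not normalised. They also deposited normalised values, used here as a signal equal to the count divided by 1 size factor per library: multiplied back, 100% of values came out whole within 0.01 and equal to the counts, so the count test on recovered reads is the test on the counts.

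Counts were fitted with edgeR 4.0.16 in R 4.3.3 (TMM; filterByExpr with minimum count 10 and minimum total 15, leaving 11814 genes with 99.98% of counts; a term per group over 18 libraries; robust quasi-likelihood test with 12 residual and 2.92 prior degrees of freedom; biological coefficient of variation 26.0%). P-values were adjusted by Benjamini-Hochberg over all tested genes at 0.05. CPM values are TMM-scaled, and log2 CPM used a prior count of 2. Each SE is the size of the log2 difference divided by the square root of edgeR's F statistic. It thus rests on the spread over all libraries fitted and not on the groups compared alone. Correlations with Alas2 used two-sided permutation of log2 CPM (100000 resamples for 18 libraries, all 362880 orders of 9, all 46656 orders within groups). Alternatives were DESeq2 1.42.0, voom with quality weights (limma 3.58.1), other scalings, filters and erythroid measures, and leaving out each library. Scripts were tested on simulated data. No 2 libraries of a group were duplicates (lowest chi-square per degree of freedom 31.9).

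The genes, and the 23 gene lists and rule for named genes (the 8 genes, Alas2, list members past the week 2 threshold or else those with the 3 smallest p, relatives and partners, and the 3 nearest genes by r), were chosen with earlier results of these data known. Neighbours needed a mean log2 CPM of at least 1. Depth limits F2rl1 most, at 50 to 146 reads per library. Some genes that this rule names are not reported here.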

Additional observations from a re-analysis of the deposited data

How the results depend on the processing

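Over the 8 genes and all alternative settings, 120 of 120 week 6 differences from the mean of CaP and PCL were above 0, from 0.36 to 1.13. Because week 6 values selected the genes, this sign is no independent support. Counts of all genes called moved most. For ACPC-NP against PCL, CaP and their mean at week 2 they were 632, 595 and 1013 with DESeq2, and 281 and 365 against PCL and CaP with voom. At week 6 they were 623 with DESeq2 and 3462 with voom. With only the groups compared they were 4 at week 2 and 317 at week 6. With the replicate number as a block, 239 and 49 genes were called, and no call of a member changed. Whether the numbers pair the samples is not in the labels. Of the same-numbered pairs of groups, 9 of 18 had deviations correlated above 0.1 (-0.262 to 0.379). In 17 of 36 checks, each a choice among the 3 replicate numbers of another group, the own number matched best. These values do not settle whether samples were paired, and the main tests used no pairing. Leaving out 1 library gave 0 to 877 (PCL), 0 to 893 (CaP), 10 to 1363 (mean) and 0 to 1335 (week 6). Members called at week 2 were 1, Chac2, with voom against CaP and against the mean, and 0 to 1 when 1 library was left out.

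Genes correlated with Alas2 numbered 0 at week 2 on the authors' normalised values and 2 with Klf1 in place of Alas2, and 0 with Klf1 after centring. Leaving out 1 library gave 4 to 7 over all libraries, 0 to 2 at week 2 and 0 to 5 after centring. Small week 2 differences changed sign. Against CaP, Slc46a3 was 0.0011 with DESeq2, 0.0014 with its size factors in edgeR and 0.024 with voom, and F2rl1 was -0.11 with voom. With voom, Chp1 was -0.057 against PCL and -0.021 against the mean, and F2rl1 -0.16 against the mean; between CaP and PCL, Fntb was -0.24 and Chp1 -0.072. Leaving out 1 library against CaP gave -0.11 to 0.11 for Chp1, -0.077 to 0.21 for F2rl1, -0.42 to 0.019 for Fntb and -0.091 to 0.13 for Slc46a3. Against PCL it gave -0.013 to 0.18 for Chp1, -0.20 to 0.17 for F2rl1 and -0.049 to 0.14 for Map4k5, and against the mean -0.060 to 0.13 for Chp1 and -0.14 to 0.15 for F2rl1. Between CaP and PCL it gave -0.0051 to 0.21 for Chp1, -0.23 to 0.054 for F2rl1, -0.18 to 0.25 for Fntb, -0.058 to 0.21 for March2 and -0.047 to 0.20 for Tusc2.

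Correlations near 0 changed sign too. At week 2, F2rl1 was 0.273 on CPM without TMM and 0.0667 by Spearman, and Chp1 0.456 without TMM and 0.0157 with Klf1. After centring, F2rl1 was -0.218 with Klf1 and -0.140 with an erythroid list score. Leaving out 1 library at week 2 gave -0.284 to 0.298 for F2rl1, -0.529 to 0.221 for Chp1, -0.226 to 0.486 for Slc46a3 and -0.020 to 0.555 for Fntb. After centring it gave -0.070 to 0.344 for Chp1 and -0.123 to 0.453 for Slc46a3. A library left out lowers the number of libraries; otherwise the cause was not tested.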
